A study of Drosophila melanogaster with 6 samples.

Results

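The genes described here are 41 protein-coding genes of chromosome 4 of Drosophila melanogaster, chosen as a list of names on the dm6 annotation, out of 17453 genes in the deposited tables. No threshold on a measured value was used, but earlier results of these data were known when the list was chosen. The 41 genes have known or inferred roles in transcription, signalling, growth factor supply, adhesion, RNA handling or transport, and the tables hold 69 further chromosome 4 genes. RNA recovered with the zinc finger RNA-binding protein Zn72D was set against the RNA of the lysate it was recovered from. The 3 RIP libraries (RNA immunoprecipitation) were made from head lysate precipitated with an antibody against GFP and washed 8 times, and the 3 input libraries from a small part of the lysate before precipitation. Both groups came from the heads of adult flies, males and females pooled, raised at 25 C in cycles of light and dark, of the genotype y1 w*; P{PTT-GA}Zn72D[CA07703], in which a protein trap tags Zn72D with GFP at its own locus. Both went through the same rRNA removal with antisense DNA oligonucleotides and a heat-stable RNase H. A precipitation from untagged flies or without the antibody was not analysed here, the protocol names no crosslinking step, and enrichment below always means relative to input. The labels do not tell whether the replicate numbers mark separate collections of flies, so the p-values measure the spread between these libraries, which may be technical. Much of that spread was a shift of replicate 3 shared by RIP and input, as described below, and the labels do not give its source.

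Chromosome 4 is the smallest chromosome of the fly, and nearly all of it is packed as heterochromatin although its genes are expressed. Its genes lie among many transposable element copies, are coated by the heterochromatin protein HP1a, and are bound by POF, a protein that recognises this chromosome and raises its output, much as the male X is recognised by the dosage compensation complex. The chromosome is related by descent to an ancestral X. Zn72D is itself known for its part in dosage compensation of the male X, through the splicing of mle, and for its effect on RNA editing in neurons.

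The libraries held 28070655 to 38182015 expected counts in RIP and 34401553 to 38331703 in input. rRNA took 6.55% ± 2.49 (SD, n = 3) of the RIP counts and 79.9% ± 2.67 of the input counts, which left 25434735 to 36377598 counts outside rRNA in RIP and 5864723 to 8182107 in input. The mean fragment length read from the tables was 198.2 ± 7.10 bases in RIP and 167.2 ± 5.57 bases in input. RIP replicate 3 stood apart, with a chi-square per degree of freedom of 139 and 142 against the other RIP libraries, where RIP replicates 1 and 2 had 15.8 between them. By this measure the input libraries were about equally far from each other, at 32.3 to 42.0. The measure grows with depth, and input had fewer counts outside rRNA, so it does not compare the groups. Input replicate 3 stood apart too when deviations from group means were correlated. These gave 0.848 with RIP replicate 3, and -0.789 and -0.764 with RIP replicates 1 and 2. Of the head cell type markers, all 5 neuron markers were enriched, where 20.2% of all tested genes were enriched and 17% depleted. Their summed levels were 3843 to 5176 CPM in RIP and 1581 to 2062 CPM in input. The marker calls make no allowance for transcript length, which moved with the fold change, as described below. The photoreceptor markers had 0 enriched and 1 depleted of 5, the glia and fat body markers 0 and 0 of 5 each, the muscle markers 1 and 2 of 5, and the testis markers 0 and 0 of 4 tested, and no marker was at 0 in every library.

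Chromosome 4 messages were over-represented in the Zn72D precipitate. Outside rRNA, the 41 genes took 1.10% ± 0.0468 of the RIP counts and 0.681% ± 0.0337 of the input counts (SD, n = 3). The whole chromosome took 3.18% ± 0.106 of the RIP counts and 2.22% ± 0.188 of the input counts. The RIP shares of both lay above every input share. All 41 genes passed the filter on low counts and were tested with edgeR's quasi-likelihood test among 11670 genes, with Benjamini-Hochberg adjustment at 0.05. Of the 41, 34 (82.9%) were enriched in RIP, 0 were depleted and 7 did not pass the test, where 20.2% of all tested genes were enriched and 17% depleted. Enrichment of at least 2-fold was called for 15 of the 41, against 5.9% of all tested genes. In 37 of the 41 every RIP library was above every input library, against 26.5% of all tested genes, and the exceptions were Arl4, Rad23, yellow-h and JYalpha. Their median log2 fold change was 0.91, against 0.06 over all tested genes and 0.04 over protein-coding genes elsewhere. Scaling by library size alone, which makes no allowance for the difference in rRNA, moved the median of all tested genes to 1.90. The median of the 41 stood 0.85 above that of all tested genes under that scaling and under the main one. A change of scaling moves all genes by about the same amount. This distance could therefore hardly differ, and it does not test the effect of the rRNA difference. The neuron markers moved the same way as these genes, and their part in the result was not tested.

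**Figure D1:**
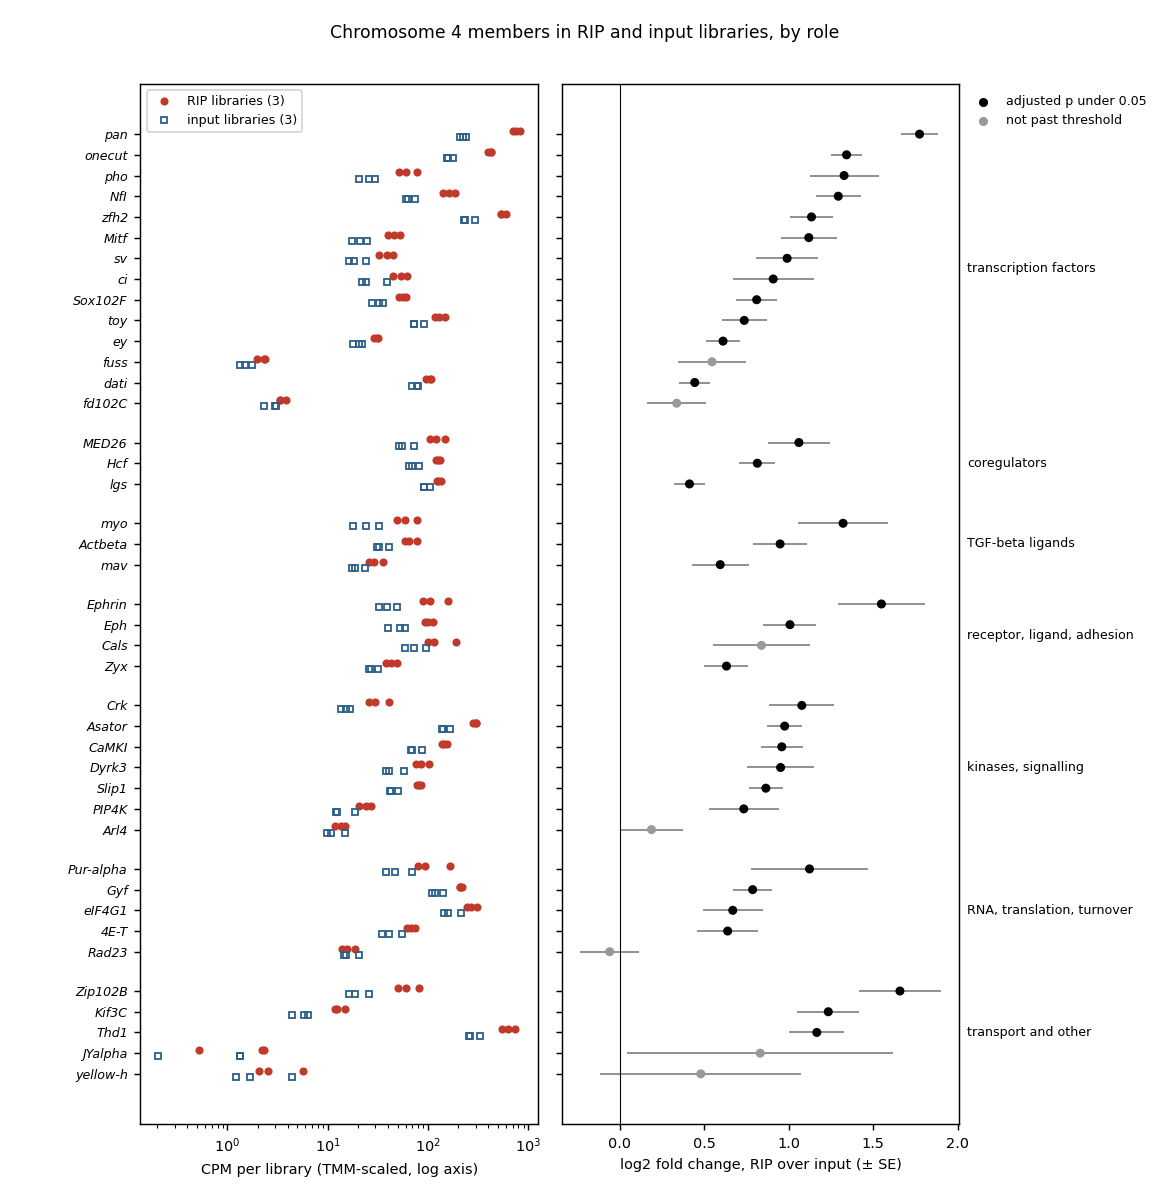
Levels of the 41 chromosome 4 genes in CPM (counts relative to the TMM-scaled library size, log axis) in the 3 RIP libraries (filled circles) and 3 input libraries (open squares), left, and log2 fold changes of RIP over input with their SE, right, grouped by role. Black points passed an edgeR adjusted p of 0.05 (34 genes), grey points did not (7 genes), and Rad23 alone lies below 0.

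Chromosome 4 encodes an unusual set of developmental transcription factors, and 12 of the 14 listed were enriched, with a median log2 fold change of 0.95. In all 14 every RIP library was above every input library. Pangolin, the TCF factor that switches Wingless target genes (pan, FBgn0085432, 69326 to 114270, plus strand; coordinates here and below are dm6 chromosome 4), had 764, 706 and 826 CPM in RIP, against 208, 223 and 240.1 CPM in input. Even the lowest RIP library was far above the highest input library. Its log2 fold change of 1.77 ± 0.11 (SE, edgeR adjusted p = 0.000302) was the highest of the 41 genes, a 3.42-fold enrichment. The neuronal cut-homeodomain factor onecut (FBgn0028996, 598555 to 607649, minus strand) had 422, 398 and 422 CPM in RIP, against 156, 158 and 176 CPM in input. The RIP libraries lay close together and far above input. The log2 difference between the groups was 1.34 ± 0.09 (SE, edgeR adjusted p = 0.000365). Pleiohomeotic, a DNA-binding protein of the Polycomb group (pho, FBgn0002521, 1172469 to 1181628, minus strand), had 60.2, 51.3 and 78.3 CPM in RIP, against 25.7, 20.4 and 29.6 CPM in input. RIP replicate 3 was the highest library and input replicate 2 the lowest, with no overlap between the groups. On the log2 scale this was a gain of 1.33 ± 0.20 (SE, edgeR adjusted p = 0.00367). The forkhead factor fd102C (FBgn0039937, 836986 to 844529, minus strand) was nearest to 0 in this group, with 3.83, 3.35 and 3.36 CPM in RIP, against 2.98, 2.35 and 3.04 CPM in input. All of its RIP libraries were above all input libraries, but by little, and its log2 fold change of 0.34 ± 0.17 (SE, edgeR adjusted p = 0.193) did not pass the test.

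The 10 other transcription factors ranged from 0.44 to 1.29 on the log2 scale. NfI, a nuclear factor one protein, averaged 162 ± 21.5 CPM in RIP and 66.1 ± 6.98 CPM in input (SD, n = 3 each), a log2 fold change of 1.29 ± 0.13 (SE, edgeR adjusted p = 0.000986). The zinc finger homeodomain factor zfh2 averaged 552 ± 36.2 CPM in RIP and 251 ± 34.7 CPM in input, a log2 fold change of 1.13 ± 0.13 (SE, edgeR adjusted p = 0.00128). Mitf, a basic helix-loop-helix factor of lysosome and eye development, had a log2 fold change of 1.12 ± 0.16 (SE, edgeR adjusted p = 0.00310). Shaven, the Pax2 protein of sensory organs and cone cells (sv), had one of 0.99 ± 0.18 (SE, edgeR adjusted p = 0.00711). The Hedgehog effector ci had one of 0.91 ± 0.24 (SE, edgeR adjusted p = 0.0268), and that call was lost when RIP replicate 1 or 3 or input replicate 1 or 2 was left out. Sox102F, a SoxD protein, stood at 0.81 ± 0.12 (SE, edgeR adjusted p = 0.00347). The Pax6 genes toy and ey act at the top of the eye programme. The first stood at 0.74 ± 0.13 (SE, edgeR adjusted p = 0.00667) and ey at 0.61 ± 0.10 (SE, edgeR adjusted p = 0.00462). The zinc finger factor dati had 108, 106 and 96.7 CPM in RIP, against 69.7, 78.3 and 80.5 CPM in input. Its libraries did not overlap between the groups, and the difference was 0.44 ± 0.09 (SE, edgeR adjusted p = 0.0111) on the log2 scale. The Ski family corepressor fuss was a low-level gene, with 2.33, 2.37 and 2.00 CPM in RIP, against 1.34, 1.75 and 1.49 CPM in input. Its groups did not overlap, and its log2 fold change of 0.55 ± 0.20 (SE, edgeR adjusted p = 0.0781) did not pass the test. With a block for the replicate number it was 0.54 (edgeR adjusted p = 0.0236, and 2.77e-05 to 0.437 over its alternatives).

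The coregulators were all enriched, 3 of 3. MED26, a subunit of the Mediator complex (FBgn0039923, 778516 to 788978, minus strand), had 121, 105 and 148 CPM in RIP, against 55.6, 51.2 and 72.3 CPM in input. Replicate 3 was the highest library of each group, and the lowest RIP library was above the highest input library. This gave a log2 fold change of 1.06 ± 0.18 (SE, edgeR adjusted p = 0.00551). Hcf, a scaffold of chromatin-modifying complexes (FBgn0039904, 359938 to 375554, plus strand), had 132, 120.3 and 127 CPM in RIP, against 69.3, 65.4 and 81.3 CPM in input. The groups were well apart, with a log2 fold change of 0.81 ± 0.11 (SE, edgeR adjusted p = 0.00206). Legless, the BCL9 protein that joins Pygopus to Armadillo on Pangolin (lgs, FBgn0039907, 436957 to 443911, minus strand), had 136, 126 and 124 CPM in RIP, against 91.8, 91.8 and 106 CPM in input. The lowest RIP library was above the highest input library by less than for Hcf. A log2 fold change of 0.41 ± 0.09 (SE, edgeR adjusted p = 0.0151) was the lowest among the 34 enriched genes, and the call was lost without input replicate 1 or without input replicate 2. Pangolin and its coactivator legless, which act at the same target genes, stood at the upper and lower end of the enriched genes, at 1.77 and 0.41 on the log2 scale. With the trend of fold change with transcript length removed, 0 of the 3 coregulators were enriched, where 7.53% of all tested genes were. The value of lgs turned to -0.28.

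All 3 ligands of the TGF-beta superfamily on the chromosome were enriched. Myoglianin (myo, FBgn0026199, 690686 to 696055, minus strand), a ligand made by muscle and glia, had 58.6, 49.6 and 78.6 CPM in RIP, against 24.2, 17.9 and 32.7 CPM in input. Replicate 3 was again the highest library in each group, and the groups did not overlap. The fold change came to 1.32 ± 0.27 (SE, edgeR adjusted p = 0.0100) on the log2 scale. Actbeta, an Activin ligand made by neurons (FBgn0024913, 1077331 to 1084796, minus strand), had 64.1, 58.4 and 78.1 CPM in RIP, against 32.3, 30.7 and 40.9 CPM in input. The RIP libraries were all above input, and the difference was 0.95 ± 0.16 (SE, edgeR adjusted p = 0.00499) on the log2 scale. Maverick (mav, FBgn0039914, 623219 to 626031, minus strand), another ligand of the family, had 29.3, 25.7 and 35.5 CPM in RIP, against 18.7, 17.6 and 23.7 CPM in input. The lowest RIP library, replicate 2, was just above the highest input library, replicate 3. RIP exceeded input by 0.59 ± 0.17 (SE, edgeR adjusted p = 0.0341) on the log2 scale, and the call was lost when RIP replicate 1 or 3 or input replicate 1 or 2 was left out.

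The chromosome carries the only Ephrin ligand and Eph receptor genes of the fly, a pair that guides axons by contact between cells. Both were enriched at least 2-fold. Ephrin (FBgn0040324, 571755 to 580122, plus strand) had 105, 90.1 and 160.1 CPM in RIP, against 39.3, 32.9 and 49.5 CPM in input. RIP replicate 3 was the highest by far, and even the lowest RIP library was above every input library. The log2 difference between the groups was 1.55 ± 0.26 (SE, edgeR adjusted p = 0.00490), a 2.92-fold enrichment. The receptor Eph (FBgn0025936, 610684 to 622470, plus strand) had 99.98, 93.8 and 111 CPM in RIP, against 53.2, 40.1 and 58.6 CPM in input. Input replicate 2 was the lowest library and the groups did not overlap. On the log2 scale this was a gain of 1.01 ± 0.16 (SE, edgeR adjusted p = 0.00382). Zyxin, a focal adhesion protein of the Hippo pathway (Zyx, FBgn0011642, 1057365 to 1065001, minus strand), had 43.1, 38.6 and 49.5 CPM in RIP, against 27.2, 25.8 and 31.8 CPM in input. All RIP libraries were above input, with a log2 fold change of 0.63 ± 0.13 (SE, edgeR adjusted p = 0.0110), and the call was lost without input replicate 1 or without input replicate 2. Calsyntenin, a transmembrane cadherin of synapses (Cals, FBgn0039928, 1112874 to 1123357, minus strand), had 116, 100.1 and 189 CPM in RIP, against 72.5, 58.6 and 95.7 CPM in input. Its groups did not overlap, but RIP replicate 3 lay far above the other RIP libraries. The log2 fold change of 0.84 ± 0.29 (SE, edgeR adjusted p = 0.0649) did not pass the test, and with the replicate block it was 0.81 (edgeR adjusted p = 2.86e-08, and 2.86e-08 to 0.535 over its alternatives).

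Of the 7 genes of kinases and intracellular signalling, 6 were enriched. The SH2 and SH3 adaptor Crk (FBgn0024811, 210224 to 213165, plus strand) had 29.9, 25.7 and 41.1 CPM in RIP, against 13.7, 15.3 and 16.8 CPM in input. The input libraries were close together and all RIP libraries above them. This gave a log2 fold change of 1.08 ± 0.19 (SE, edgeR adjusted p = 0.00653). Asator, a kinase of the tau-tubulin kinase family (FBgn0039908, 469409 to 488994, minus strand), had 299, 283 and 299 CPM in RIP, against 138, 143 and 167 CPM in input. The RIP libraries agreed closely and were all well above input. The fold change came to 0.98 ± 0.10 (SE, edgeR adjusted p = 0.00103) on the log2 scale. CaMKI, a calcium/calmodulin-dependent kinase (FBgn0016126, 445504 to 453947, plus strand), had 146, 137 and 155 CPM in RIP, against 68.3, 69.4 and 88.1 CPM in input. Input replicate 3 was the highest input library and still below every RIP library. RIP exceeded input by 0.96 ± 0.12 (SE, edgeR adjusted p = 0.00205) on the log2 scale. Arl4, a small GTPase (FBgn0039889, 177348 to 179389, minus strand), was nearest to 0, with 13.5, 12.0 and 15.0 CPM in RIP, against 10.7, 9.80 and 15.0 CPM in input. Here the groups overlapped, and input replicate 3 was as high as the highest RIP library. The log2 fold change of 0.19 ± 0.19 (SE, edgeR adjusted p = 0.505) did not pass the test. The others were Dyrk3, a dual-specificity kinase, at 0.95 ± 0.20 (SE, edgeR adjusted p = 0.0111), whose call was lost without input replicate 1. The potassium channel partner Slip1 stood at 0.86 ± 0.10 (SE, edgeR adjusted p = 0.00150). The phosphoinositide kinase gene PIP4K stood at 0.73 ± 0.21 (SE, edgeR adjusted p = 0.0336), and its call was lost without RIP replicate 1 or 3 or input replicate 1 or 2.

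Genes of RNA handling, translation and protein turnover had the lowest median log2 fold change of the role groups, 0.67, with 4 of 5 enriched. Pur-alpha, which binds single-stranded nucleic acid (FBgn0022361, 558016 to 567257, plus strand), had 93.4, 79.4 and 166 CPM in RIP, against 47.0, 38.4 and 70.0 CPM in input. Replicate 3 was far above replicates 1 and 2 in both groups, and the lowest RIP library was above the highest input library. Its log2 fold change of 1.12 ± 0.34 (SE, edgeR adjusted p = 0.0443) had the largest SE of the enriched genes, and the call was lost when RIP replicate 1 or 3 or input replicate 1 or 2 was left out. Gyf, a GIGYF protein that holds back translation (FBgn0039936, 853557 to 867025, minus strand), had 218, 207 and 211 CPM in RIP, against 117, 109.5 and 143 CPM in input. The RIP libraries were nearly equal and clear of input, with a log2 fold change of 0.79 ± 0.12 (SE, edgeR adjusted p = 0.00324). The translation initiation scaffold eIF4G1 (FBgn0023213, 915297 to 930715, minus strand) had 267, 245 and 309 CPM in RIP, against 158, 144 and 215 CPM in input. The groups did not overlap. The log2 difference between the groups was 0.67 ± 0.18 (SE, edgeR adjusted p = 0.0272), a call lost without RIP replicate 1 and without input replicate 1 or 2. 4E-T, which binds eIF4E and holds back translation, stood at 0.64 ± 0.18 (SE, edgeR adjusted p = 0.0335), a call lost without RIP replicate 1 or 3 or input replicate 1 or 2. Rad23, a shuttle that brings ubiquitinated proteins to the proteasome (FBgn0026777, 308093 to 310822, plus strand), had 15.6, 14.02 and 18.6 CPM in RIP, against 15.2, 14.6 and 20.4 CPM in input. The groups overlapped throughout. Its log2 fold change of -0.06 ± 0.18 (SE, edgeR adjusted p = 0.832) was the lowest of the 41 and the only one below 0.

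In the remaining group 3 of 5 genes were enriched, all at least 2-fold. Zip102B, a zinc transporter (FBgn0039902, 310930 to 314087, minus strand), had 60.6, 49.9 and 81.6 CPM in RIP, against 18.7, 16.3 and 25.8 CPM in input. Every RIP library was far above every input library. Its log2 fold change of 1.66 ± 0.25 (SE, edgeR adjusted p = 0.00315) came next to that of pan. Kif3C, a kinesin motor (FBgn0039925, 1147466 to 1169239, plus strand), had 12.3, 11.8 and 15.0 CPM in RIP, against 4.37, 6.40 and 5.82 CPM in input. The groups were apart at a low level, with a log2 fold change of 1.23 ± 0.18 (SE, edgeR adjusted p = 0.00322). The thymine DNA glycosylase gene Thd1 (FBgn0026869, 538332 to 557854, minus strand) had 628, 546 and 738 CPM in RIP, against 262, 258 and 333 CPM in input. RIP replicate 3 was the highest library and the groups did not overlap. On the log2 scale this was a gain of 1.17 ± 0.16 (SE, edgeR adjusted p = 0.00256). The cuticle and pigment family gene yellow-h (FBgn0039896, 227922 to 230428, plus strand) had 2.57, 2.08 and 5.66 CPM in RIP, against 1.22, 1.70 and 4.43 CPM in input. Replicate 3 was the highest library in each group and the groups overlapped. A log2 fold change of 0.48 ± 0.59 (SE, edgeR adjusted p = 0.590) did not pass the test, and with the replicate block it was 0.51 (edgeR adjusted p = 0.0226, and 0.000142 to 0.877 over its alternatives). JYalpha, a sodium pump alpha subunit gene known for its role in sperm motility (FBgn0267363, 879 to 5039, plus strand), had 2.34, 2.22 and 0.526 CPM in RIP, against 1.34, 1.33 and 0.206 CPM in input. Replicate 3 was lowest in each group, where the input library held 4 counts, and the groups overlapped. A log2 fold change of 0.83 ± 0.79 (SE, edgeR adjusted p = 0.476) did not pass the test, and with the replicate block it was 0.84 (edgeR adjusted p = 0.00459, and 0.00459 to 0.795 over its alternatives). The summed testis markers, at 4.58 to 29.0 CPM in RIP and 7.77 to 50.5 CPM in input, were also lowest in replicate 3 of each group, and their part in the values of JYalpha was not tested. Of the fat body markers, the yolk protein gene Yp1 went the other way, with 695, 661 and 1938 CPM in RIP, against 751, 701 and 1997 CPM in input. Yp2 was also highest in replicate 3 of each group. The labels do not give the share of males and females in each pool, and its part was not tested. Between replicates of bulk lysate, fewer cells of a type and less RNA per cell cannot be told apart.

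The spread among replicates was largely shared between the groups. Replicate 3 was higher than the mean of replicates 1 and 2 in both groups for 33 of the 41 genes and lower in both for 2, JYalpha and fuss. Over all tested genes it was higher in both groups for 43.8%. Adding the replicate number to the model as a block, which removes such a shared shift, gave 38 of the 41 enriched and 0 depleted, where 32.7% of all tested genes were enriched and 27.7% depleted. The genes it added were Cals, JYalpha, fuss and yellow-h. Arl4, Rad23 and fd102C did not pass in either fit. The fits that left out 1 library had no block. Members whose calls were lost in those fits were enriched with all libraries and the block. Their edgeR adjusted p ran from 2.37e-10 in Pur-alpha to 0.00023 in lgs. The block takes the replicate numbers as pairing the samples, which the labels do not state.

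Levels in input can be compared between genes only per length. On the TPM scale, which counts rRNA in its total and so is low for every other gene in these inputs, pan had the highest input level of the 41 genes at 18.5 ± 3.07 TPM. Thd1 followed at 17.4 ± 3.71 TPM and CaMKI at 16.1 ± 3.53 TPM (SD, n = 3), and these neighbours in the order did not differ beyond their spread. At the low end, fd102C had 0.590 ± 0.0608 TPM, fuss 0.290 ± 0.0755 TPM and JYalpha 0.147 ± 0.104 TPM. The last of these varied between libraries by nearly as much as its mean. Kif3C, another low gene at 0.613 ± 0.188 TPM, was nonetheless enriched more than 2-fold.

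The 41 genes are long and well expressed, and length moved with the fold change in these libraries. Their median transcript length was 3304 bases, against 1856 bases for 11039 tested protein-coding genes elsewhere, and their median input level was 40.5 CPM, against 6.05 CPM. Across genes elsewhere the log2 fold change rose with length, with Spearman's rho of 0.68 (n = 11039 genes, which share the same 6 libraries and are not independent replicates). The fitted trend ran from -0.49 at 1000 bases to 0.66 at 5000 bases. Among the 41 genes rho was 0.34. Several short members lay well above that trend. Crk, at 1162 bases, was enriched, where genes elsewhere under 1500 bases had a median log2 fold change of -0.60 and 0.865% enriched. PIP4K, at 1454 bases, was enriched too, and Arl4, at 1042 bases, had 0.19. From 1500 to 3000 bases, 8 of 12 members were enriched (median 0.68), against 12.8% of genes elsewhere (median 0.08). From 3000 to 5000 bases, 17 of 19 were enriched (median 0.95), against 50.5% elsewhere (median 0.51). All 7 members of 5000 bases or more were enriched (median 1.13), against 74.9% elsewhere (median 0.71).

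**Figure D2:**
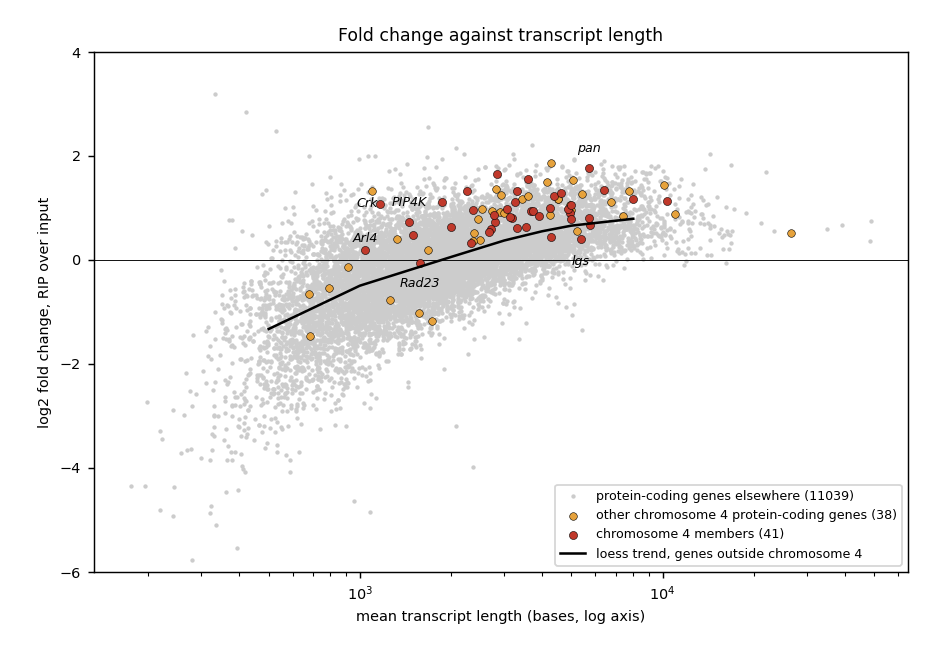
Log2 fold change of RIP over input against mean transcript length (bases, log axis) for the 41 chromosome 4 genes (red), 38 other protein-coding genes of chromosome 4 (orange) and 11039 protein-coding genes elsewhere (grey; 1 of them lies outside the plotted range), with the loess trend of genes outside chromosome 4 as a line. Most red points lie above the line, Crk, PIP4K and Arl4 by the most among short genes, and lgs lies below it.

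Each member was then set beside the 100 tested genes outside chromosome 4 nearest to it in length and input level. The fold change was above the median of those genes in 38 of the 41 members, above their upper quartile in 26, within their quartiles in 14 and below their lower quartile in 1, lgs. The members exceeded the medians by a median of 0.42 on the log2 scale. The medians of the like genes ran from -0.97 to 0.85, and on average 50.6% of the like genes were themselves enriched, against the 20.2% of all tested genes. Crk stood out most, at 1.08 against a median of -0.87 in its like genes. Zip102B had 1.66 against 0.35, and PIP4K had 0.73 against -0.44. Arl4, although near 0 itself, had 0.19 against -0.97. Rad23 had -0.06 against -0.22. The members below their like genes were lgs with 0.41 against 0.84, dati with 0.44 against 0.62, and eIF4G1 with 0.67 against 0.78. Input level enters both the choice of like genes and the fold change, and the comparison is a description with no test.

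**Figure D3:**
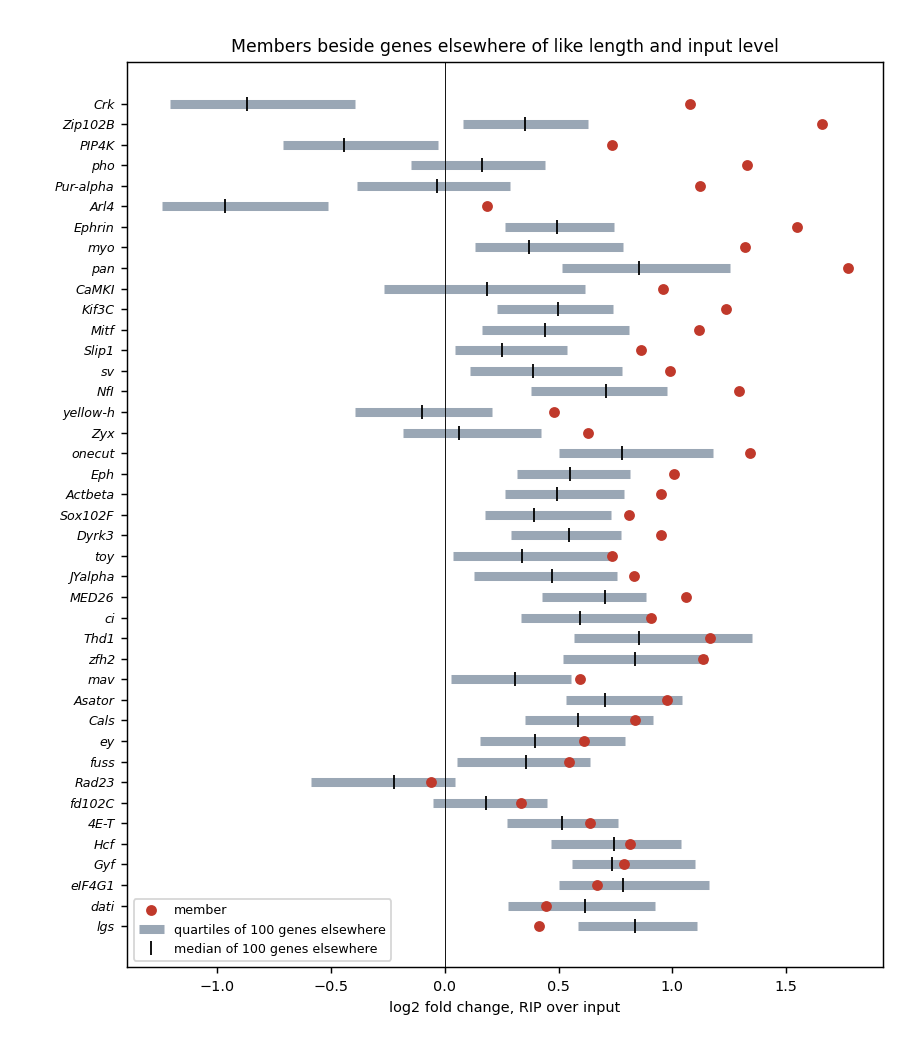
Log2 fold change of RIP over input of each of the 41 chromosome 4 genes (red circles), with the median (tick) and quartiles (bar) of the 100 tested genes elsewhere nearest in transcript length and input CPM, ordered by the difference. The circle is right of the tick in 38 genes, and left of it in eIF4G1, dati and lgs.

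When the length trend of genes outside chromosome 4 was taken out of the counts before the test, 12 of the 41 remained enriched and 0 were depleted, where 7.53% of all tested genes were enriched and 11.3% depleted. These 12 were pan, Zip102B, Ephrin, onecut, pho, NfI, Mitf, Crk, CaMKI, Slip1, PIP4K and Zyx. The median of the 41 was 0.43 after that step, with 38 values above 0. Crk had 1.45, Zip102B 1.33, pho 1.17 and pan 1.06, on the log2 scale. With the replicate block as well, 30 were enriched and 1, lgs, was depleted, against 23.8% and 25.7% of all tested genes. The signs of lgs, dati and eIF4G1 turned when the trend was removed. By role, the 12 were 5 of 14 transcription factors, 4 of 7 kinases and intracellular signalling genes, 2 of 4 receptor, ligand or adhesion genes and 1 of 5 transport or metabolism genes, with 0 of 3 TGF-beta ligands, 0 of 5 RNA, translation or turnover genes and 0 of 3 coregulators.

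Transposable element copies, a mark of this chromosome, were present in most members. Of the 41 genes, 33 held at least 1 annotated transposable element copy within their span, against 7.64% of tested protein-coding genes elsewhere. Such copies covered a median of 10.5% of the span, from 0 in lgs and Zip102B to 52.0% in Kif3C and 48.8% in pho. The members' median span was 9160 bases, against 2654 bases elsewhere. Across the 41 members, which share 6 libraries, Spearman's rho of the log2 fold change was 0.0013 with the covered share, -0.01 with the position along the chromosome, 0.26 with span and 0.29 with input CPM. The members with no copy ran from -0.06 in Rad23 to 1.66 in Zip102B on the log2 scale. At the highest cover, Kif3C had 1.23 and pho 1.33. Whether such copies bear on recovery was not tested.

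Exon overlap could limit the reading of a few members, because the strand setting of the counting is not given in the sources used here. Exons of 11 members overlap those of another gene, in 10 of them on the opposite strand only, and in 5 the overlap covers more than 10% of the exonic bases. The enriched neighbours zfh2 and Thd1 share 2325 bases on opposite strands, which is 18.7% of the exonic bases of zfh2 and 17.7% of those of Thd1. PIP4K shares 20.0% with CG33521, fuss 13.1% with lncRNA:sphinx and yellow-h 12.1% with asRNA:CR46065. Division of reads between genes was small in all members, these included, since the posterior SD that RSEM gives a count was at most 0.211% of it in any member and library.

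The rest of the chromosome was measured too. Of its 38 other protein-coding genes, all tested, 24 were enriched and 4 depleted, where 20% of protein-coding genes outside chromosome 4 were enriched and 17.4% depleted. All depleted protein-coding genes of the chromosome were thus outside the list of 41, which was chosen with earlier results known. The median log2 fold change of the 38 was 0.92, and 32 of them were above the median of their like genes. The highest was CG11360 (FBgn0039920, 671142 to 690650, plus strand), with 117, 103 and 141 CPM in RIP, against 32.1, 32.6 and 33.8 CPM in input. All RIP libraries were far above input, and the difference was 1.87 ± 0.13 (SE, edgeR adjusted p = 0.000375) on the log2 scale. The lowest named by the same rule were genes of mitochondrial oxidative phosphorylation and a neighbour. ATPsynbeta, the beta subunit of ATP synthase (FBgn0010217, 1031484 to 1034917, plus strand), had 193, 186 and 214 CPM in RIP, against 416, 399 and 525 CPM in input. Every RIP library was below every input library, and the difference was -1.18 ± 0.14 (SE, edgeR adjusted p = 0.00138) on the log2 scale. ND-49, a subunit of complex I, had 24.0, 21.5 and 25.4 CPM in RIP, against 47.3, 40.8 and 56.4 CPM in input, also without overlap. On the log2 scale this was a difference of -1.03 ± 0.14 (SE, edgeR adjusted p = 0.00243). CG11076, whose exons overlap ATPsynbeta on the opposite strand by 191 bases, stood at -0.77 ± 0.12 (SE, edgeR adjusted p = 0.00427). The other depleted gene was Mpv17, named after its value was seen, at -1.46 ± 0.20 (SE, edgeR adjusted p = 0.00232), and 94.6% of its exonic bases overlap asRNA:CR44031 on the opposite strand. With the length trend removed the call of Mpv17 was lost, at -0.53 (edgeR adjusted p = 0.108). Under scaling by library size alone all 4 depleted genes, Mpv17 at 0.38 included, turned to above 0, where the median of all tested genes was 1.90.

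Noncoding genes of the chromosome were counted as well. Of 24 annotated ncRNA genes 13 were tested, of which 6 were enriched and 0 depleted. Of 6 pseudogenes 4 were tested, with 2 enriched and 1, CR32009, depleted. The call of CR32009 was lost without RIP replicate 1 or 2 or input replicate 1 or 2, and the posterior SD of its count reached 49.3% of the count. Among ncRNA genes and pseudogenes outside chromosome 4, 17.2% were enriched and 3.25% depleted. Some noncoding genes of chromosome 4 had few input counts. The enriched lncRNA:CR44441 had 94, 100 and 46 counts in RIP, against 3, 2 and 6 in input. The enriched asRNA:CR45126 had 129, 99 and 70 in RIP, against 4, 14 and 6 in input. Such genes can pass the filter on low counts through RIP, and the part of this in the calls was not tested. Without that filter 8 noncoding genes were enriched and 1 depleted, as with it. The same genes stay in the test when the filter is dropped, so this count does not bear on that question. Overlap on the opposite strand covers 59.7% of the exonic bases of the enriched asRNA:CR45126, by Taf3, and, by unc-13, 92.5% of those of the enriched pseudogene CR43361 and all of those of the enriched asRNA:CR43425. The strand setting is not given, but the posterior SD of the counts of these genes was 0 in every library. RSEM thus divided no reads between them and their partners. In lncRNA:CR43958, which shares 55.3% of its exonic bases with Thd1 on the same strand, it reached 12.0% of the count. asRNA:CR44029, which shares 13.1% of its exonic bases with unc-13 on the opposite strand, had 8.18, 7.36 and 12.5 CPM in RIP, against 2.49, 1.98 and 2.99 CPM in input. Its libraries did not overlap, with a log2 fold change of 1.91 ± 0.27 (SE, edgeR adjusted p = 0.00270). It reached the mean CPM required for naming through its RIP libraries. lncRNA:CR44024 (FBgn0264794, 427331 to 431769, plus strand) had 34.7, 34.6 and 40.7 CPM in RIP, against 9.54, 11.2 and 12.1 CPM in input. All RIP libraries were above input, with a log2 fold change of 1.74 ± 0.13 (SE, edgeR adjusted p = 0.000400).

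Chromosome arms were compared over all tested protein-coding genes. On chromosome 4, 73.4% of 79 genes were enriched, with a median log2 fold change of 0.91. The X had 26.8% of 1783 genes enriched and a median of 0.18. The large autosome arms lay lower, with 17.4% on 2L, 18.4% on 2R, 21.0% on 3L and 18.3% on 3R, and medians of -0.02 to 0.09. With the length trend removed, 27.8% of chromosome 4 genes were enriched, against 10.8% on the X, 5.59% on 2L, 5.12% on 2R, 7.61% on 3L and 5.54% on 3R. The medians were then 0.44 on chromosome 4, 0.02 on the X and -0.07 to 0.01 on the autosome arms. These shares are descriptions with no test.

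**Figure D4:**
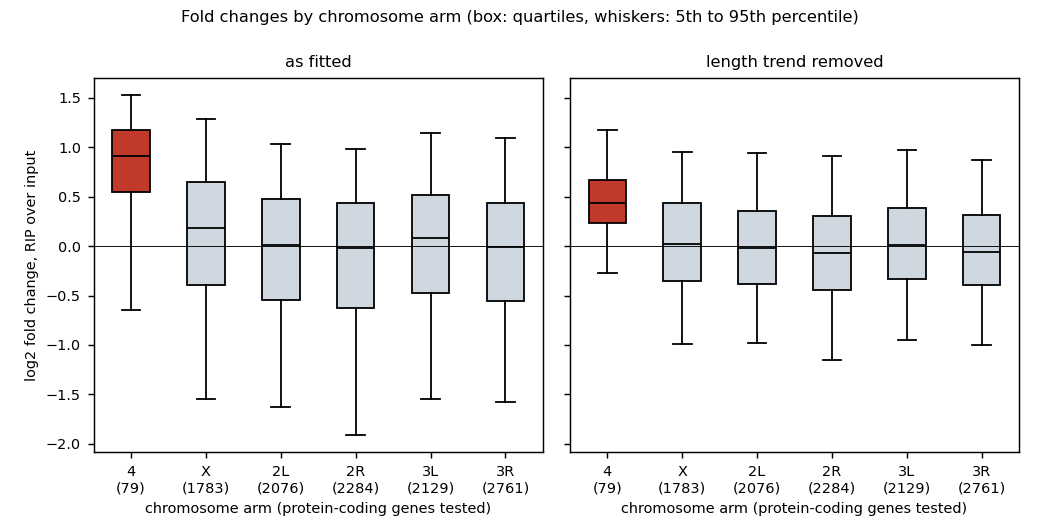
Log2 fold change of RIP over input of tested protein-coding genes by chromosome arm (number of genes under each arm), as fitted on the left and with the length trend removed on the right. Boxes give the quartiles with the median as a line, and whiskers the 5th and 95th percentiles. The median of chromosome 4 is 0.91 as fitted and 0.44 with the trend removed, above those of the other arms.

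Of 11 genes whose proteins act on chromosome 4 or heterochromatin, none of them located on this chromosome and all tested, 2 were enriched, 3 depleted and 6 did not pass the test, where 20.2% of all tested genes were enriched and 17% depleted. Pof, whose protein paints chromosome 4, had 27.3, 26.1 and 7.74 CPM in RIP, against 25.7, 23.6 and 9.83 CPM in input. Replicate 3 was the lowest in both groups, as for the testis markers, and the groups overlapped, with a log2 fold change of 0.05 ± 0.55 (SE, edgeR adjusted p = 0.955). The gene that encodes HP1a had 2.93, 2.93 and 2.88 CPM in RIP, against 6.68, 9.06 and 7.77 CPM in input. Every RIP library was below every input library, with a log2 fold change of -1.43 ± 0.16 (SE, edgeR adjusted p = 0.00117). HP1c stood at -0.90 ± 0.19 (SE, edgeR adjusted p = 0.0121) and egg, the H3K9 methyltransferase of chromosome 4, at -0.45 ± 0.11 (SE, edgeR adjusted p = 0.0203). The call of egg was lost without the filter on low counts, without RIP replicate 2 and without input replicate 1, with adjusted p-values of up to 0.0776 over its alternatives (edgeR). The enriched genes were G9a, another H3K9 methyltransferase, at 0.75 ± 0.09 (SE, edgeR adjusted p = 0.00180), and Hmt4-20, the H4K20 methyltransferase, at 0.61 ± 0.11 (SE, edgeR adjusted p = 0.00584). The genes that did not pass had log2 fold changes of 0.29 for wde, the cofactor of egg, 0.27 for Su(var)3-9, 0.24 for Su(var)3-7, 0.18 for Kdm4A and -0.05 for HP1b. With the length trend removed 0 of the 11 were enriched and 3 depleted, where 7.53% of all tested genes were enriched and 11.3% depleted. G9a and Hmt4-20 were just below 0, HP1c lost its call at -0.39 (edgeR adjusted p = 0.207), and Su(var)3-7 was depleted at -0.38 (edgeR adjusted p = 0.0440).

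Transcript length gave a further readout that the fold change does not use, because RSEM weights a gene's length by the isoforms it finds in each library. Among 34 members with several transcripts of differing length, limma on log2 length (Benjamini-Hochberg at 0.05 over 6410 genes) called 8, where 16% of all such genes were called. Of these, 5 were longer in RIP (12.7% of all such genes) and 3 shorter (3.31%). The largest difference among the called members, in ey, was 0.08 on the log2 scale, so 0 reached 0.1, which 5.41% of all such genes did. The ey transcripts averaged 3399, 3387 and 3393 bases in RIP, against 3149, 3237 and 3261 bases in input. Every RIP library was longer than every input library, with a log2 ratio of 0.08 ± 0.014 (SE, limma adjusted p = 0.0280). Asator averaged 4911, 4947 and 5026 bases in RIP, against 4763, 4710.0 and 4818 bases in input, again without overlap, with a log2 ratio of 0.06 ± 0.013 (SE, limma adjusted p = 0.0416). The other longer genes were Crk, Zyx and eIF4G1. Eph was shorter in RIP, at 4164, 4155 and 4197 bases in RIP, against 4298, 4327 and 4359 bases in input. Its groups did not overlap, with a log2 ratio of -0.05 ± 0.007 (SE, limma adjusted p = 0.0124). Gyf and Mitf were the other shorter genes. These calls changed with the libraries used. Leaving out RIP replicate 1 or 2 left 1, RIP replicate 3 left 2, input replicate 1 left 4 and input replicate 3 left 5, and with the replicate block 1 remained, Eph (limma adjusted p = 0.040). Pur-alpha and Thd1 had larger log2 ratios of 0.13 and 0.11, in which RIP replicate 3 was far longer than the other libraries, and they did not pass the test (limma adjusted p = 0.188 and 0.261).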

How the data were processed

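RNA was measured in 3 RIP and 3 input libraries, grouped by their titles. The submitters' processing notes list the genome dm6 and the tools RSEM 1.2.30, STAR 2.5.4b, DESeq2 1.20.0 and Trim Galore 0.4.5, with no role or order. Which annotation release and which strand setting were used is not given in the sources. Per the file headers, the authors deposited RSEM expected counts, TPM, isoform-weighted length and effective length per gene. The deposited posterior mean and SD of each count, a signal from RSEM's sampling, were used only for the uncertainty of dividing reads. TPM, as the authors deposited it, is scaled over all genes, rRNA included. Symbols and coordinates came from the Ensembl annotation of the same assembly: 17179 IDs matched directly, 197 through transcripts and 77 not at all. Of the members, 40 matched by symbol and Thd1 by an older one.

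Expected counts were rounded, filtered by filterByExpr (11670 genes kept), scaled by TMM and tested with edgeR 4.0.16 (R 4.3.3, limma 3.58.1; quasi-likelihood, group only, Benjamini-Hochberg at 0.05). SE is the fold change divided by the square root of F. TMM takes most genes to be equal between groups, which need not hold in a precipitation. TMM factors were 1.70 to 2.01 in RIP and 0.479 to 0.608 in input. rRNA means genes whose symbol contains rRNA, pseudogene copies included. Fragment length is the median of length minus effective length over genes above 3000 bases. Like genes were the 100 tested genes outside chromosome 4 nearest in log2 length and log2 input CPM, each scaled by its SD. The length trend was a loess (span 0.5) over genes outside chromosome 4, used as an offset. The fits were also run on simulated counts and lengths. These had no shift shared by same-numbered libraries and no length trend, so they do not bear on those features of the real data. Replicates of a group differed beyond sampling noise (chi-square over its degrees of freedom 15.8 to 142), and all were kept as separate samples.

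The labels share replicate numbers 1 to 3 between groups. Deviations from group means correlated at 0.665, 0.604 and 0.848 between same-numbered libraries, all above 0.1, so a further fit with a replicate block treated the numbers as pairing the samples. The main fit and the fits that left out libraries had no block, so their p-values do not use this pairing. The common dispersion, edgeR's measure of spread between replicates, was 0.102 without the block and 0.0079 with it. Libraries numbered 1 and 2 also correlated across numbers (0.626 and 0.604), so the check separates replicate 3 and does not tell 1 from 2.

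In each role group, values in every library are given for the 3 enriched genes with the largest changes and the gene nearest 0, and others by choice after their values were seen. Of other chromosome 4 genes, the 3 highest and 3 lowest called without overlap at a mean CPM of 5 or more are named, and all measured regulators. The members and lists were chosen with earlier results of these data known. Alternatives were RLE, library size and TMM without rRNA as scalings, no filter, DESeq2 1.42.0, limma on log2(TPM + 1), the block, the length trend, and leaving out libraries.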

Additional observations from a re-analysis of the deposited data

How the results depend on the processing

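Of the 34 enriched chromosome 4 genes, 10 kept their call under all 16 alternatives: pan, Zip102B, Ephrin, onecut, pho, NfI, Mitf, Crk, CaMKI and Slip1. Library size alone and limma on log2(TPM + 1) called 9386 and 11296 of 11670 genes enriched, all 41 members included. These alternatives could hardly take a call away. The count of enriched members stayed within 1.5 times the main one under every alternative but removal of the length trend, which left 12, and it ran from 25 to 35 when 1 library was left out. Of the others, 14 lost the call only with the trend removed, 9 lost it in another alternative, and 1, dati, turned sign with the trend removed. RLE scaling cost Pur-alpha, PIP4K, eIF4G1, 4E-T and mav their calls, and TMM without rRNA genes these and lgs. The cause of these changes was not tested. The low counts of JYalpha, fuss, fd102C and yellow-h limit what can be seen for them.

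The members' median moved to 2.75 with library size alone, 4.04 with limma on log2(TPM + 1), 0.43 with the length trend removed and 0.44 with trend and block, and ran from 0.71 to 1.11 when 1 library was left out. Its distance from the median of all genes was 1.501 with limma on log2(TPM + 1), where that median was 2.54, 0.44 with the trend removed and 0.44 with trend and block, and ran from 0.71 to 1.04 without 1 library. Over all genes, the enriched and depleted counts of 2362 and 1989 became 9386 and 173 with library size alone, 11296 and 25 with limma on log2(TPM + 1), and 879 and 1316 with the trend removed. With the trend removed and the block, 2996 were depleted, and 3498 without both replicate 3 libraries. Leaving out 1 library gave 1593 to 2608 enriched and 1409 to 2361 depleted.

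With the replicate block, which uses the pairing of replicate numbers, 3821 genes were enriched and 3230 depleted, and 327 genes, of them 1 member, differed in length, against 1028 and 8 without it. It changed no member's call other than the 4 it gained. With trend and block 1 member, lgs, was depleted.

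Other protein-coding genes of the chromosome had 37 enriched and 0 depleted with library size alone, 38 and 0 with limma on log2(TPM + 1), and 10 enriched with the trend removed, with 17 to 27 enriched and 4 to 5 depleted when 1 library was left out. Its noncoding genes had 15 enriched and 0 depleted with library size alone, 17 and 0 with limma on log2(TPM + 1) and 13 enriched with trend and block, with 7 to 10 enriched and 0 to 1 depleted without 1 library. Length calls ran from 329 to 943 genes, and from 1 to 6 members, when 1 library was left out. With 50 or 200 like genes, or mean CPM as the level, the members' median difference from like genes was 0.40, 0.42 and 0.35.

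Some log2 fold changes turned sign. With the trend removed and with trend and block, the values were -0.0475 and -0.0328 for eIF4G1, -0.15 and -0.15 for dati, -0.28 and -0.27 for lgs, 0.073 and 0.079 for Rad23, -0.35 and -0.34 for wde, -0.38 and -0.38 for Su(var)3-7, -0.0125 and -0.0121 for G9a, 0.28 and 0.28 for HP1b, and -0.10 and -0.096 for Hmt4-20. With library size alone and with limma on log2(TPM + 1), they were 1.78 and 3.16 for Rad23, 0.66 and 2.27 for ATPsynbeta, 0.82 and 2.31 for ND-49, 1.08 and 2.48 for CG11076, 1.4 and 2.32 for egg, 0.39 and 1.77 for the HP1a gene, 1.79 and 2.99 for HP1b and 0.95 and 2.03 for HP1c. Pof had -0.0192 with RLE, -0.0922 with TMM without rRNA genes, -0.0217 with DESeq2, -0.0074 with the replicate block and -0.0454 without both replicate 3 libraries. HP1b had 0.0067 without the filter. When 1 library was left out, Pof ran from -0.29 to 0.30, yellow-h from -0.17 to 1.24, Arl4 from -0.001 to 0.42, Rad23 from -0.29 to 0.13 and HP1b from -0.15 to 0.016.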
